A study of Mus musculus with 6 samples.

Results

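The passenger strands of the miR-30 family were followed in the inner medulla of the mouse kidney, in animals lacking Dicer1 in aquaporin-2 cells and in controls. They were taken by name as the 3p arms of the 6 miR-30 hairpins: mmu-miR-30a-3p, mmu-miR-30b-3p, mmu-miR-30c-1-3p, mmu-miR-30c-2-3p, mmu-miR-30d-3p and mmu-miR-30e-3p, written below without the species prefix. These are 6 of the 1081 mature miRNA entries in the deposited table. All 6 were tested, and their lowest value in any library, 36.8 normalized reads, lay well above the filter applied to the table (a mean of at least 5 over all libraries). A normalized read is a read count divided by 1 scaling factor per library.

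The samples came from DicerAQP2Cre+ mice (n = 3) and control mice (n = 3), all 1 month old, with 1 small RNA library per mouse. The name DicerAQP2Cre+ is read as loss of Dicer1 in cells where aquaporin-2 directs Cre. Cells of the inner medulla without Cre would keep it, and which cells lost it was not measured. The labels give the reference animals only as controls, with no alleles. The table's columns for the DicerAQP2Cre+ mice carry a short code and a replicate number, and reading that code as DicerAQP2Cre+ is an inference on which every direction below rests. Small RNA libraries do not measure Dicer1 mRNA, so the deletion was not checked in any sample.

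A miRNA hairpin is cut out of its primary transcript by Drosha and then trimmed by Dicer into a short duplex of its 5p and 3p arms. An Argonaute protein keeps 1 arm as the guide and most copies of the other, the passenger, are degraded. In the miR-30 family, which is abundant in kidney epithelium, the 5p arm is the usual guide and all guides start alike. The passenger arms differ more from each other, and so they tell apart loci whose guides cannot be separated. The hairpins lie in 3 clusters, Mir30b with Mir30d, Mir30a with Mir30c-2, and Mir30c-1 with Mir30e.

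The mature sequences below show how the 3p arms split into 2 seed groups, with the seed (bases 2 to 8, the part that pairs with target mRNAs) in capitals. They are RefSeq sequences on GRCm38.p6, and 4 of the 6 3p arms were matched there. The submitters' processing notes name mm9, so these positions are not those of the authors' build.
miR-30a-3p (chr1:23272315-23272336, + strand): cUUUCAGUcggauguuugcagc
miR-30e-3p (chr4:120772618-120772639, - strand): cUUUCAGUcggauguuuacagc
miR-30c-1-3p (chr4:120769546-120769567, - strand): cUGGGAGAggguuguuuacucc
miR-30c-2-3p (chr1:23291754-23291775, + strand): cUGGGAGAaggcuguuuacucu
miR-30a-3p and miR-30e-3p share a seed and differ at 1 of 22 bases, G18A with the base of miR-30a-3p first, counted from 1 at the 5′ end. Reads of these 2 arms could therefore be exchanged if mismatches were allowed in counting, and the counting rule is not given in the sources used here. The guides miR-30a-5p and miR-30e-5p also differ at 1 of 22 bases (C13U), with means of 62838 and 4098 normalized reads over all libraries. The same limit holds for these guides and for the 3p-to-5p ratios of miR-30a and miR-30e given below. miR-30c-1-3p and miR-30c-2-3p share the other seed and differ at 3 bases (G9A, U12C and C22U, with the base of miR-30c-1-3p first). Each of the 2 clusters shown thus holds 1 arm of each seed.

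The hairpins of the miR-30c loci are printed to show why only the 3p arm identifies the locus, with both mature arms in capitals.
Mir30c-1 (chr4:120769534-120769622, - strand): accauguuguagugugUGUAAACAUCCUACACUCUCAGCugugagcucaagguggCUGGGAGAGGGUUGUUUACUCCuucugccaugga
Mir30c-2 (chr1:23291701-23291784, + strand): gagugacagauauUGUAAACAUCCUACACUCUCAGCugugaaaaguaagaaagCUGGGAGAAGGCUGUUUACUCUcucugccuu
Both loci give the same miR-30c-5p, the first arm in capitals, and the arms are 16 bases apart in Mir30c-1 and 17 in Mir30c-2. In GRCm38 Mir30c-1 and Mir30e lie 2983 bases apart inside introns of Nfyc, a subunit of the CCAAT-binding factor NF-Y. Mir30a and Mir30c-2 lie 19361 bases apart, and Mir30c-2 overlaps an exon of the long non-coding RNA gene Gm27028.

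Recovered reads per library ranged from 2934851 to 7614853 in DicerAQP2Cre+ mice and from 4924091 to 6780624 in controls. The 6 passenger arms together took between 0.108 and 0.159% of reads in DicerAQP2Cre+ libraries, against 0.194 to 0.242% in controls. These shares depend on the most abundant entry, miR-181a-5p. It took 58.2 to 66.8% of reads in DicerAQP2Cre+ libraries and 43.3 to 52.8% in controls. In normalized reads the 6 arms summed to 6232 to 9275 in DicerAQP2Cre+ libraries, against 10093 to 11544 in controls. Epithelial markers were present in every library, but no miRNA of collecting duct alone was among the markers used. DicerAQP2Cre+ replicate 2 was the shallowest library and DicerAQP2Cre+ replicate 3 gave values nearest to controls for most arms, so results are also given without single libraries.

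All 6 passenger arms had lower means in DicerAQP2Cre+ mice, and 3 of them fell past the test threshold: miR-30d-3p, miR-30b-3p and miR-30c-1-3p. Their levels were 35.3, 41.1 and 48.3% of the control mean. miR-30e-3p, miR-30a-3p and miR-30c-2-3p stood at 64.6, 65.2 and 73.0% of it and did not pass. The test was limma on log2(value + 1), fitted to all 461 entries above the filter, with Benjamini-Hochberg adjusted p under 0.05 as the threshold. Over all tested entries 4.99% were called lower in that test, 23 of 461, and 50.5% had a log2 fold change below 0. edgeR and DESeq2 on the recovered reads also called 3 of the 6 arms lower, where they called 4.99 and 8.36% of all entries they tested. The 6 arms had a median log2 fold change of -0.85, beside -0.01 over all entries tested. In 4 of the 6 arms the DicerAQP2Cre+ values all lay below the controls, against 18.0% of tested entries.

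**Figure D1:**
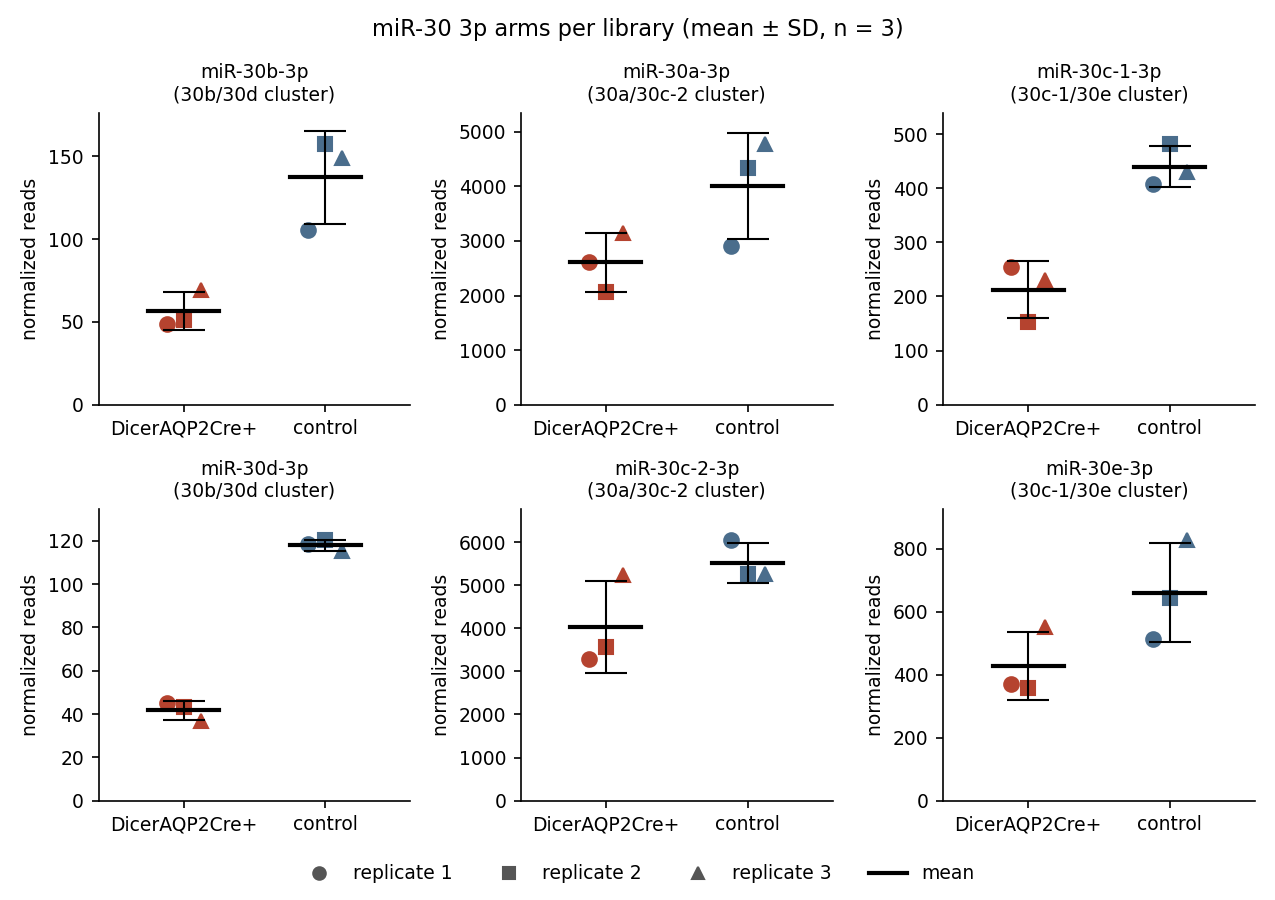
Normalized reads of each 3p arm (linear axis from 0, a separate scale per panel) in DicerAQP2Cre+ and control libraries, with 1 symbol per replicate number and the mean ± SD in black. The groups are wide apart for miR-30d-3p, while for miR-30a-3p and miR-30e-3p they overlap.

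The 3p arms of the 30b/30d cluster were the rarest of the family and had the lowest fold changes of the 6. miR-30d-3p, the passenger of the most abundant miR-30 guide, had 45.1, 43.1 and 36.8 normalized reads in DicerAQP2Cre+ replicates 1 to 3, against 118, 120 and 115 in control replicates 1 to 3. The genotypes did not overlap, and the control values were within 1.04-fold of each other. It fell 2.83-fold, to 41.7 ± 4.36 normalized reads in DicerAQP2Cre+ mice against 118 ± 2.58 in controls (SD, n = 3 each), with a log2 fold change of -1.48 ± 0.24 (SE, limma adjusted p = 0.0126). The limma adjusted p was 0.0742 without control replicate 2 and 0.0623 without control replicate 3. These values rest on few reads, 61, 22 and 36 in DicerAQP2Cre+ libraries and 154, 153 and 119 in controls.

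miR-30b-3p, the passenger of Mir30b, had 48.8, 50.9 and 69.5 normalized reads in DicerAQP2Cre+ mice, against 105, 157 and 149 in controls. All values in DicerAQP2Cre+ mice were below those of controls, with control replicate 1 the lowest of its group. Its mean fell 2.43-fold, to 56.4 ± 11.4 in DicerAQP2Cre+ mice against 137 ± 27.9 in controls (log2 fold change -1.26 ± 0.28, limma adjusted p = 0.0172). The call was lost without DicerAQP2Cre+ replicate 2 (limma adjusted p = 0.0652), control replicate 2 (0.1004) or control replicate 3 (0.0865). The difference between the pair, miR-30b-3p minus miR-30d-3p on the log2 scale, was 0.42 ± 0.42 in DicerAQP2Cre+ and 0.20 ± 0.31 in control libraries (exact two-sided permutation p = 0.6, adjusted over 3 pairs 0.8). That change of 0.22 ± 0.30 (SE) was within the spread between libraries. It was -0.022 without DicerAQP2Cre+ replicate 3.

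In the 30a/30c-2 cluster both passengers were abundant and neither passed the test. miR-30c-2-3p, described as a repressor of Xbp1 mRNA in the unfolded protein response, was the most abundant 3p arm in every library. It had 3277, 3559 and 5242 normalized reads in DicerAQP2Cre+ mice, against 6042, 5250 and 5252 in controls. DicerAQP2Cre+ replicate 3 nearly reached the 2 lower controls, although the groups did not overlap. The means were 4026 ± 1063 in DicerAQP2Cre+ mice and 5515 ± 456 in controls (log2 fold change -0.48 ± 0.22, limma adjusted p = 0.186).

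miR-30a-3p had 2620, 2067 and 3146 normalized reads in DicerAQP2Cre+ mice, against 2909, 4339 and 4771 in controls. The groups overlapped, because control replicate 1 was below DicerAQP2Cre+ replicate 3. The means were 2611 ± 539 in DicerAQP2Cre+ mice and 4006 ± 975 in controls (log2 fold change -0.61 ± 0.25, limma adjusted p = 0.140). The log2 difference of miR-30c-2-3p minus miR-30a-3p was 0.61 ± 0.25 in DicerAQP2Cre+ and 0.49 ± 0.49 in control libraries (exact two-sided permutation p = 0.8, adjusted 0.8).

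In the 30c-1/30e cluster both passengers had lower means and 1 of the 2 passed the test. miR-30c-1-3p had 254, 153 and 230 normalized reads in DicerAQP2Cre+ mice, against 407, 481 and 430 in controls, with no overlap. It fell 2.07-fold, to 212 ± 52.7 in DicerAQP2Cre+ mice against 439 ± 38.0 in controls (log2 fold change -1.08 ± 0.25, limma adjusted p = 0.0196). DicerAQP2Cre+ replicate 2, the shallowest library, was its lowest value and held 78 reads of it. Without that library the log2 fold change was -0.86 and the limma adjusted p was 0.0842. The call was also lost without control replicates 1, 2 or 3 in turn (limma adjusted p = 0.0605, 0.120 and 0.0873).

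miR-30e-3p had 370, 359 and 552 normalized reads in DicerAQP2Cre+ mice, against 512, 643 and 826 in controls. DicerAQP2Cre+ replicate 3 lay above control replicate 1, so the groups overlapped. The means were 427 ± 108 in DicerAQP2Cre+ mice and 661 ± 158 in controls (log2 fold change -0.63 ± 0.26, limma adjusted p = 0.148). miR-30c-1-3p minus miR-30e-3p was -1.01 ± 0.40 on the log2 scale in DicerAQP2Cre+ and -0.56 ± 0.33 in control libraries. For that change of -0.44 ± 0.30 (SE) the genotypes overlapped (exact two-sided permutation p = 0.2, adjusted over 3 pairs 0.6), and it was -0.68 without DicerAQP2Cre+ replicate 1. With 3 against 3 libraries such a test cannot give a p below 0.1.

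By level, the arms ran from miR-30c-2-3p through miR-30a-3p, miR-30e-3p, miR-30c-1-3p and miR-30b-3p to miR-30d-3p. That order held in 5 of the 6 libraries. In control replicate 1 the last 2 changed places, and in controls they did not differ beyond their spread. The log2 fold changes ran in the same order, from -0.48 for the most abundant arm to -1.48 for the rarest. That order of fold changes held without DicerAQP2Cre+ replicate 2 or control replicate 2, and changed without any other single library. Without DicerAQP2Cre+ replicate 3, for example, miR-30b-3p had -1.42 and miR-30d-3p -1.40. In each of these fits miR-30c-1-3p, miR-30b-3p and miR-30d-3p stayed below the other arms. These levels are reads per mature arm, and how well each sequence was captured in the libraries was not measured. By seed, the log2 fold change was -0.61 for miR-30a-3p and -0.63 for miR-30e-3p, both with UUUCAGU. It was -1.08 for miR-30c-1-3p and -0.48 for miR-30c-2-3p, both with UGGGAGA, a difference that was not tested.

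The 3 clusters were then set side by side within each library, where the scaling factor cancels. The mean log2 level of the 30b/30d pair relative to the 30a/30c-2 pair was -5.93, -5.82 and -6.30 in DicerAQP2Cre+ libraries, against -5.22, -5.11 and -5.25 in controls. That was a difference of -0.83 ± 0.15 (SE) with no overlap between genotypes. Relative to the 30c-1/30e pair, the 30b/30d pair differed by -0.52 ± 0.16. The 30a/30c-2 pair differed from the 30c-1/30e pair by 0.31 ± 0.10, again with no overlap. That value averages unlike arms. miR-30a-3p and miR-30e-3p had near log2 fold changes (-0.61 and -0.63), while miR-30c-2-3p and miR-30c-1-3p had -0.48 and -1.08. These differences between means of chosen arms were given no test. Of all 3p reads of the family, the 30b/30d cluster gave 1.36 ± 0.190% in DicerAQP2Cre+ libraries and 2.34 ± 0.161% in controls (SD, n = 3 each).

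**Figure D2:**
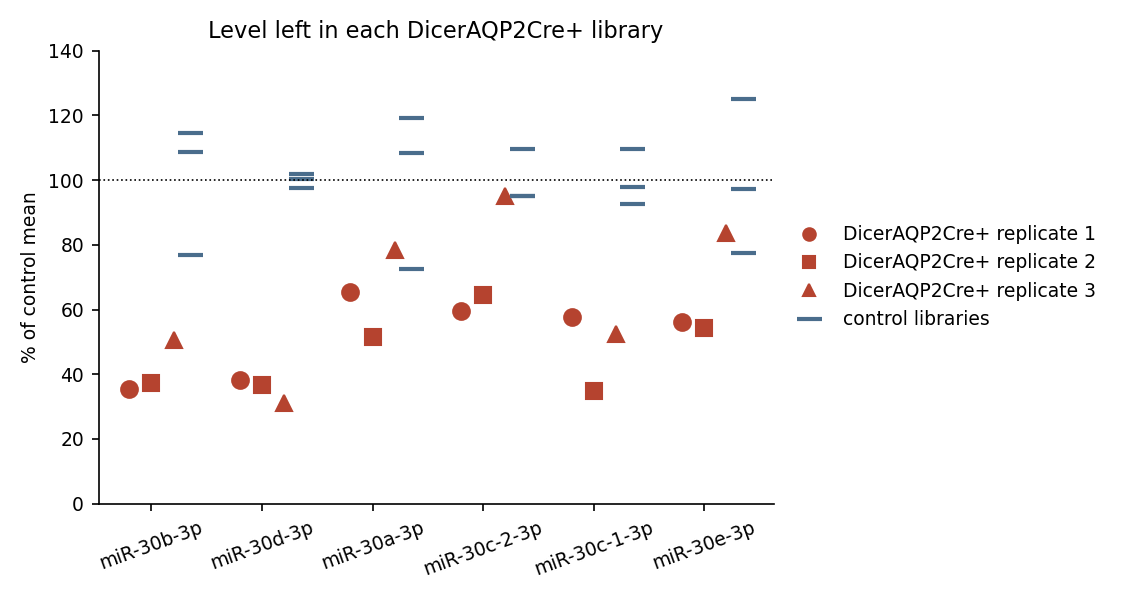
Level of each 3p arm in the 3 DicerAQP2Cre+ libraries (red symbols) as a percentage of the control mean (dotted line), with the 3 control libraries as short blue lines. Replicate 3 stands at 95.1% for miR-30c-2-3p but at 31.2% for miR-30d-3p.

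DicerAQP2Cre+ replicate 3 differed from the other libraries of its group in a way that depended on the arm. It held 95.1% of the control mean of miR-30c-2-3p, against 59.4 and 64.5% in replicates 1 and 2. For miR-30e-3p it held 83.5%, against 56.0 and 54.3%, and for miR-30a-3p 78.5%, against 65.4 and 51.6%. For miR-30b-3p it held 50.6%, against 35.6 and 37.1%. For miR-30d-3p it was instead the lowest of the 3, at 31.2% against 38.3 and 36.5%. Those miR-30d-3p values rest on 36 reads against 61 and 22, so their order is uncertain. miR-30c-1-3p stood at 52.3% in replicate 3, between the 57.8 and 34.8% of the others.

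Without DicerAQP2Cre+ replicate 3, all 6 passenger arms were called lower by limma. In that fit 13.6% of 457 entries were called lower. edgeR and DESeq2 also called all 6 without it, where they called 11.4 and 14.6% of their entries lower. The log2 fold changes were then -0.75 for miR-30a-3p (limma adjusted p = 0.0256), -0.69 for miR-30c-2-3p (0.00961) and -0.83 for miR-30e-3p (0.0165). Leaving out any other library gave limma counts at or below 3. The limma count was 2 without control replicate 1 (2.39% of entries called lower), 1 without DicerAQP2Cre+ replicate 2 (2.18%) and 3 without DicerAQP2Cre+ replicate 1 (6.78%). DESeq2 called 4 of the 6 without control replicate 1, where it called 25 of the 460 entries above the mean filter lower. Without control replicate 2 limma called 0 of the 6 (3 at an unadjusted p under 0.05, edgeR 0, DESeq2 1), and without control replicate 3 also 0 (3 unadjusted, edgeR 0, DESeq2 3). Over all entries limma and edgeR called 0.00% lower in both cases. DESeq2 called 3.75% of its entries lower without control replicate 2 and 5.28% without control replicate 3, and at an unadjusted p under 0.05 limma had 9.29 and 10.2%. All 6 fold changes stayed below 0 in each of these fits.

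**Figure D3:**
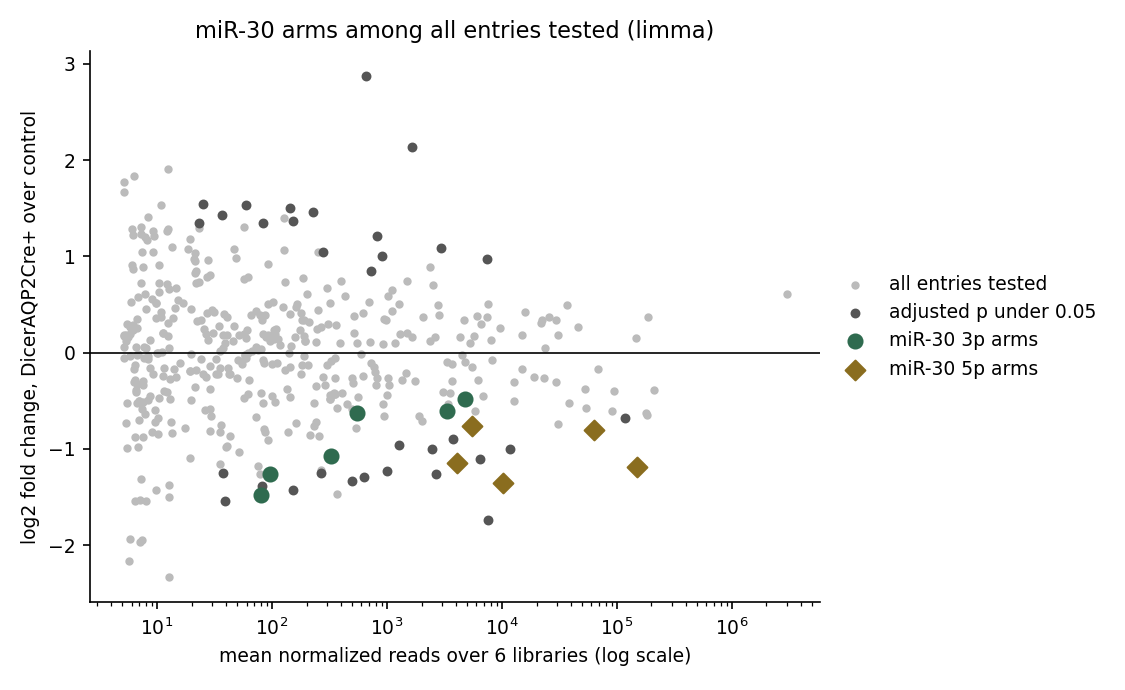
Log2 fold change (DicerAQP2Cre+ over control) against mean normalized reads (log axis) for the 461 entries tested, with called entries in dark grey. The 6 3p arms (green) and the 5 5p arms (brown) all lie below 0, and the rarer 3p arms lie lower than the abundant ones.

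The guide arms of the same hairpins give the comparison strand by strand. Of the 5 guide arms 4 fell by limma, and miR-30a-5p did not pass, beside the 4.99% of all entries called lower. miR-30c-5p, which comes from both miR-30c loci, had 5925, 5138 and 6262 normalized reads in DicerAQP2Cre+ mice, against 14172, 14809 and 15251 in controls. It fell by 1.36 ± 0.18 on the log2 scale (limma adjusted p = 0.00669), beside -1.08 for miR-30c-1-3p and -0.48 for miR-30c-2-3p. For miR-30b the passenger had the lower value, -1.26, where miR-30b-5p fell by 0.76 ± 0.19 (limma adjusted p = 0.0269). miR-30d-5p and miR-30e-5p had -1.19 ± 0.25 and -1.15 ± 0.18, and miR-30a-5p had -0.80 ± 0.30 (limma adjusted p = 0.118).

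**Figure D4:**
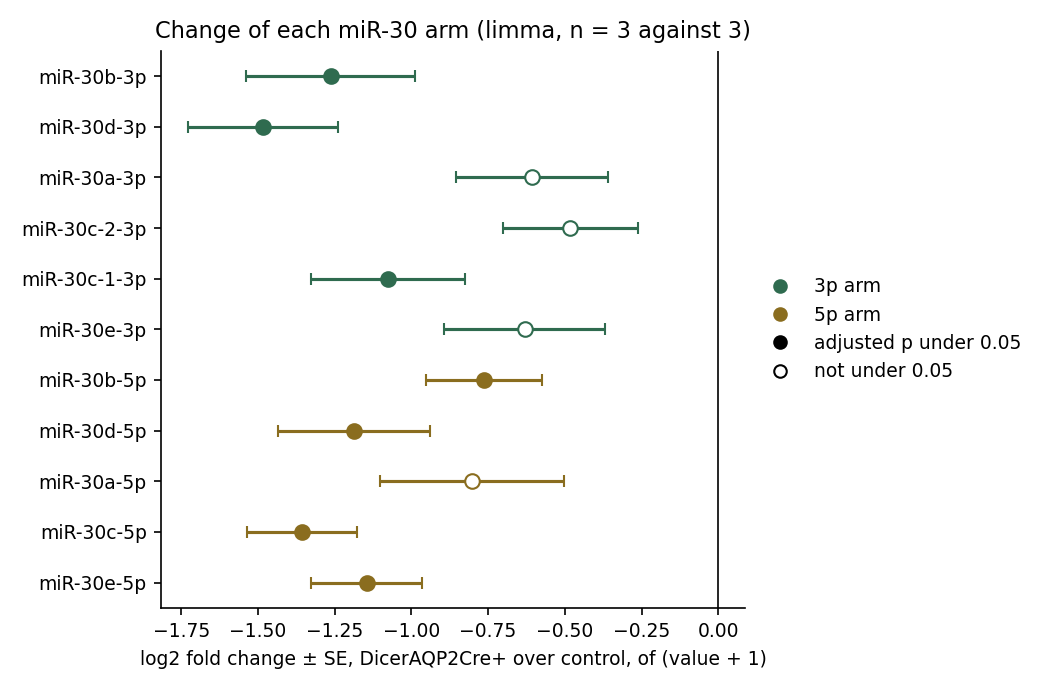
Log2 fold change ± SE (DicerAQP2Cre+ over control, limma on value + 1) of the 6 3p arms and the 5 5p arms of the miR-30 family. Filled points have an adjusted p under 0.05, and every point lies below 0.

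Whether the strands of a hairpin changed by the same factor was asked with the 3p-to-5p ratio in each library, which does not depend on scaling. For miR-30c that ratio pools the 3p arms of both loci over the shared guide, so it cannot answer this for either hairpin. The hairpins differed widely in how much passenger they left. The 3p arm gave 42.0 ± 4.65% of both arms' reads for miR-30c in DicerAQP2Cre+ libraries and 28.8 ± 2.20% in controls, adding the 3p arms of both loci. It gave 14.4 ± 3.82% in DicerAQP2Cre+ and 10.5 ± 2.91% in control libraries for miR-30e, and 5.71 ± 2.09% in DicerAQP2Cre+ and 5.09 ± 1.87% in control libraries for miR-30a. The shares were 1.37 ± 0.197% in DicerAQP2Cre+ and 1.98 ± 0.492% in control libraries for miR-30b, and 0.0491 ± 0.0194% in DicerAQP2Cre+ and 0.0578 ± 0.00640% in control libraries for miR-30d.

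Among the 5 ratios only that of miR-30c did not overlap between genotypes. The 3p share was 37.3, 41.9 and 46.6% in DicerAQP2Cre+ libraries, against 31.3, 27.9 and 27.1% in controls. On the log2 scale the ratio was 0.84 ± 0.18 (SE) higher in DicerAQP2Cre+ libraries, in 3 of 3 of them (exact two-sided permutation p = 0.1, the smallest possible, and 0.5 adjusted over the 5 ratios). It therefore failed the correction, which this design cannot pass. Most of these 3p reads came from Mir30c-2: the Mir30c-1 locus gave 7.19, 4.12 and 4.20% of them in DicerAQP2Cre+ libraries, against 6.31, 8.39 and 7.56% in controls. Those locus shares overlapped between genotypes.

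For the other 4 ratios the genotypes overlapped. The log2 difference between DicerAQP2Cre+ and control libraries was 0.52 ± 0.36 (SE) for miR-30e, 0.19 ± 0.48 for miR-30a, -0.30 ± 0.39 for miR-30d and -0.50 ± 0.26 for miR-30b. The miR-30e value was 0.27 without DicerAQP2Cre+ replicate 3 and 0.30 without control replicate 1, and the miR-30a value changed sign without DicerAQP2Cre+ replicate 1 (-0.10) and without control replicate 1 (-0.18). With all libraries the exact two-sided permutation p was 0.3, 0.7, 0.7 and 0.2 for miR-30e, miR-30a, miR-30d and miR-30b, and between 0.5 and 0.7 after adjustment. For miR-30d, DicerAQP2Cre+ replicate 3 had a 3p share of 0.0273% (95% exact binomial interval 0.0191 to 0.0378%), below the 0.0643 and 0.0558% of its group. Its share lay below the interval of each control library, whose lowest bound was 0.0419%. Without that library the miR-30d difference was 0.078. For miR-30a, control replicate 1 stood apart with a 3p share of 2.94%, against 6.04 and 6.29% in the other controls.

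**Figure D5:**
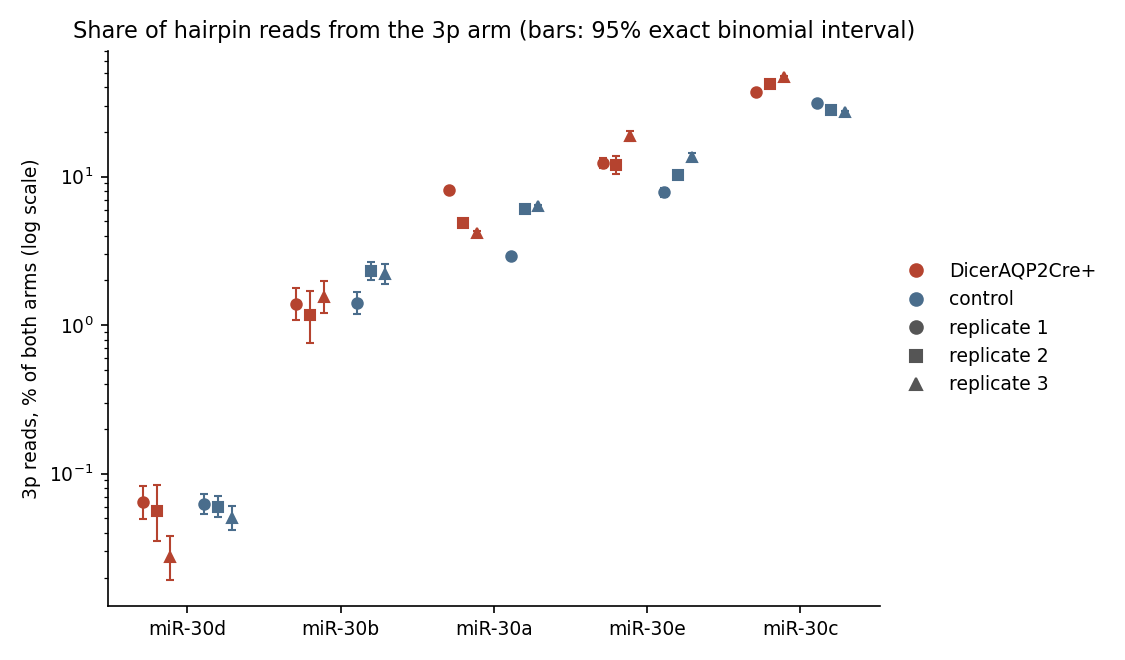
Share of a hairpin's reads from its 3p arm (log axis, %) in DicerAQP2Cre+ (red) and control (blue) libraries, with 95% exact binomial intervals that cover counting error only. For miR-30c the reads of both loci are pooled. The shares run from under 0.1% for miR-30d to over 27% for miR-30c, where the DicerAQP2Cre+ libraries lie above the controls.

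Minor arms of other hairpins had a median fold change near 0. Arms matched by name gave 340 hairpins, and the less abundant arm, set by the mean over all libraries, was tested in 112. Of these 3 fell and 0 rose by limma: miR-30d-3p, miR-30b-3p and miR-872-5p (log2 fold change -1.39, limma adjusted p = 0.0162). Leaving out the 4 miR-30 arms matched in this way, 1 of 108 was called, and the median log2 fold change was -0.03, beside -0.85 for the 6 miR-30 3p arms. Over all tested entries 4.99% were called lower. Some other hairpins had a more abundant arm that was itself called lower. Their tested minor arms had log2 fold changes of -1.03 (miR-187-5p), -0.99 (miR-31-3p), -0.83 (miR-141-5p), -0.72 (miR-200a-5p), -0.58 (miR-200b-5p), -0.11 (miR-455-5p) and 0.08 (miR-148a-5p). None of these passed by limma. DESeq2 called 7 minor arms in all. The miR-30c passengers carry locus numbers that their guide does not and so were not matched by name.

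The entries whose pattern over the 6 libraries was most like the mean of the passenger arms were named by Pearson's r on the log2 scale. They were miR-31-5p (r = 0.983), miR-1943-5p (0.979), miR-29a-3p (0.979), miR-224-5p (0.973) and miR-429-3p (0.972). Outside the miR-30 family 21 entries had an r above 0.9, and much of each r is the genotype difference that the libraries share. miR-31-5p, an epithelial miRNA, had 1464, 1238 and 2062 normalized reads in DicerAQP2Cre+ mice, against 3674, 3709 and 3793 in controls. miR-429-3p, a miR-200 family member that represses Zeb1 and Zeb2, had 523, 560 and 728 in DicerAQP2Cre+ mice, against 1360, 1375 and 1469 in controls.

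Marker miRNAs of the cells in the tissue moved too, where limma called 23 of all 461 entries lower and 16 higher. The 5 epithelial markers (the 3p arms of the miR-200 family) all fell by limma, and their summed level was 7133 to 10776 normalized reads in DicerAQP2Cre+ libraries, against 16704 to 17708 in controls. DicerAQP2Cre+ replicate 3 had the highest sum of its group, as it had for 4 of the 6 passenger arms. That sum was led by miR-200b-3p, at 6108 in replicate 3 against 3399 and 3200 in replicates 1 and 2. miR-200c-3p and miR-429-3p were also highest in replicate 3. There miR-141-3p was instead lowest (199 against 425 and 253), and miR-200a-3p lay between the others. Of 5 stromal and smooth muscle markers 2 rose by limma, miR-145a-5p and miR-214-3p. Sums of the 5 were 27621 to 39941 in DicerAQP2Cre+ libraries and 23291 to 24538 in controls. The larger part of each stromal sum was miR-143-3p, which did not pass (limma adjusted p = 0.315). The 2 endothelial markers did not pass, with sums of 830 to 1245 in DicerAQP2Cre+ and 961 to 1229 in control libraries. Of 3 cortical tubule markers 2 were tested and 1, miR-194-5p, fell. Sums of the 3 were 627 to 1131 in DicerAQP2Cre+ libraries and 1277 to 1340 in controls. Most of each sum was miR-192-5p, which did not pass (limma adjusted p = 0.235). It overlapped between genotypes, with 1075 in DicerAQP2Cre+ replicate 3 against 1017 in control replicate 2. Sums of the leukocyte (4 markers), erythroid (3) and striated muscle markers overlapped between genotypes and 0 of their tested members were called. Nearly all of the leukocyte sum was miR-150-5p, and nearly all of the erythroid sum was the shared entry of miR-486a-5p and miR-486b-5p. The neuronal marker miR-124-3p was at 0 in 5 of 6 libraries. In whole tissue, fewer epithelial cells and less miRNA per cell cannot be told apart, and the part of these shifts in the passenger arm results was not tested.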

How the data were processed

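The authors deposited 1 table of normalized values (unit: signal) for 1081 mature miRNAs. Per the submitters' processing notes, DESeq2, FastQC 0.11.3 and genome build mm9 were used. No source used here names the aligner, its mismatch setting or the miRNA annotation. In the deposited signal values 100% were whole multiples of the column's smallest value (tolerance 0.01 read), so reads were recovered. A count of 0 allows up to 3 reads, 2.22 to 5.88 normalized reads by library. Intervals cover counting error only. 0 columns were left unmapped.

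limma 3.58.1 (R 4.3.3) with a trend in the variance, without a replicate block, was run on log2(value + 1) above a mean filter of 5, which left 461 entries. edgeR 4.0.16 (42 calls) and DESeq2 1.42.0 (60 calls) on recovered reads were alternatives. Ratios within libraries were compared by exact permutation (scipy 1.17.1). Apart from cell markers, the miRNAs named were the 6 passenger arms, the 5 guides, the 5 entries most like them and the most abundant entry. Minor arms named were the called ones with the lowest or highest fold change, and those of hairpins whose other arm was called lower. Members and lists were chosen with earlier results of these data known. Each library is a separate mouse, per the series' design, and no pair of libraries looked like a repeat.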

Additional observations from a re-analysis of the deposited data

How the results depend on the processing

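All 6 passenger arms had a log2 fold change below 0 in each of the limma, edgeR and DESeq2 fits run, and 3 to 6 of them had an unadjusted p under 0.05. Against 3 passenger arms, 4 guide arms, 23 lower and 16 higher entries and 3 minor arms called, the counts moved in these settings. With libraries set to equal totals 48 entries were called lower and 11 minor arms, and the median over all tested entries stood at -0.21 on the log2 scale in place of -0.01. With no trend in limma 2 passenger arms, 2 guide arms, 11 lower and 7 higher entries were called. DESeq2 called 29 entries higher and 7 minor arms. The call of miR-30c-1-3p, at the same -1.08, was lost with no trend (limma adjusted p = 0.0663) and with the replicate number as a block (0.0535). That replicate block left 2 passenger arms, 3 guide arms, 18 lower and 14 higher entries called. The numbers gave no sign of pairing mice: libraries with the same number had correlations of -0.06, 0.01 and 0.06 between their deviations, and not every library correlated best with its own number. Pseudocounts of 0.5 and 5, no filter, a filter of 50 and TMM scaling changed the call of 0 passenger arms.

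Leaving out each library in turn, limma called 0 to 6 passenger arms, 0 to 5 guide arms, 0 to 62 lower and 0 to 43 higher entries and 0 to 21 minor arms. In settings chosen after the data were seen, the passenger arm count without 1 library was 0 to 6 by edgeR and 1 to 6 by DESeq2 (1 without control replicate 2, and by edgeR 1 without DicerAQP2Cre+ replicate 2). Log2 fold changes ranged from -0.82 to -0.45 for miR-30a-3p, from -1.44 to -1.16 for miR-30b-3p, from -1.22 to -0.86 for miR-30c-1-3p, from -0.69 to -0.35 for miR-30c-2-3p, from -1.54 to -1.40 for miR-30d-3p and from -0.83 to -0.46 for miR-30e-3p. The 3p-to-5p ratio difference ranged from -0.18 to 0.41 for miR-30a (-0.10 without DicerAQP2Cre+ replicate 1), from -0.54 to 0.078 for miR-30d, from 0.70 to 0.98 for miR-30c, from 0.27 to 0.74 for miR-30e and from -0.73 to -0.37 for miR-30b. The difference of miR-30b-3p minus miR-30d-3p ranged from -0.022 to 0.37 and that of miR-30c-2-3p minus miR-30a-3p from -0.050 to 0.41, so the direction of these 2 and of the miR-30a and miR-30d ratios depended on single libraries. The cause was not tested, and each such fit also has fewer samples. Depth limits miR-30d-3p most, with 22 reads in the shallowest library.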
